A study of Mus musculus with 35 samples.

Results

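The transcripts of Cirbp and Rbm3, the 2 genes of the cold-inducible RNA-binding protein pair, were followed through 35 libraries of mouse lung. They were taken by symbol from a table of 22211 genes, 1 row each (2 of 2 found), and both were among the 16786 genes kept for testing. Every library came from the left lobe, perfused with buffer, of a male mouse aged 7 to 9 weeks. Wild-type mice received control IgG or anti-Ly6G (clone 1A8, an antibody against a neutrophil surface protein), 3 µg per g, on 2 consecutive days. There were 7 mice in each of these 4 groups (ZT4 and ZT16 for each antibody), 3 collected in July 2017 and 4 in September 2017. The DT mice (4 collected at ZT4, 3 at ZT16) received diphtheria toxin at 10 ng per g in the same scheme. They carried MRP8-Cre, which acts in neutrophils and other myeloid cells, with the floxed diphtheria toxin receptor iDTR. They formed an April 2018 batch that held no control group, so toxin, genotype and batch cannot be told apart, and DT levels were not tested against those of the other groups. ZT4 is 4 h after lights on, in the rest phase, and ZT16 lies in the dark, active phase. All lobes were taken at the same clock time in the morning, and the ZT16 mice came from cabinets with an inverted cycle of 12 h light and 12 h dark. Time of day and housing therefore cannot be told apart. The labels speak of separate mice, and each library was taken as 1 mouse.

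Cirbp and Rbm3 are small proteins with 1 RNA recognition motif and a glycine-rich tail. Their transcripts accumulate when cells are cooled by a few degrees and decline on warming, the opposite of heat shock genes, which the factor HSF1 switches on in warm or stressed cells. Rodents are warmer in the active phase, and both transcripts are known to cycle against body temperature in several tissues. CIRBP binds messages of clock genes and shifts the choice of polyadenylation sites, RBM3 supports translation in cooled cells, and CIRBP released from cells acts as an inflammatory signal in the injured lung. Body temperature is not among the values used here, so the 2 genes, the heat shock genes and Per2 are read as transcript levels only.

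Cirbp (ENSMUSG00000045193) lies on GRCm38 chromosome 10, bases 80165985 to 80172786, plus strand, and Rbm3 (ENSMUSG00000031167) on chromosome X, bases 8138975 to 8145880, minus strand. The annotation gives 7 transcripts of Cirbp, 2 of them protein-coding, and 11 of Rbm3, 6 of them protein-coding. The coding sequences of Cirbp-202 (519 bases, 172 codons without the stop) and Rbm3-201 (465 bases, 154 codons) were identical at 332 of 453 aligned bases (73.29%). Their longest identical stretch is 11 bases long, at positions 196 to 206 of both. It is shown in capitals within coding bases 166 to 236, because it bears on whether reads of one gene could be counted for the other.
Cirbp: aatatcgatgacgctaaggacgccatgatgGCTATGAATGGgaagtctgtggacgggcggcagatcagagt
Rbm3: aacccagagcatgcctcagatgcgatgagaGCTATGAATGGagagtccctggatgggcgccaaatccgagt
None of the 31-base words of their transcripts is shared between them (0 of 2655 in Cirbp). Cirbp shared 0 such words with the annotated transcripts of any other gene. Rbm3 shared 577 of 4891 (11.8%) with other genes, 372 of them with the pseudogene Rbm3-ps, and its exons overlap the antisense gene Rbm3os over 94 bases. The sources used here do not give the strand setting or the treatment of such copies, so the level of Rbm3 is the less certain of the 2.

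The reference promoter table (RefSeq, GRCm38.p6) held Cirbp, with 2 start sites. The window of the upstream start site is shown up to the next annotated exon start. The annotated gene begins further upstream, at base 80165985, so the stretch does not precede all annotated exons. It is shown because it carries the letters TCCCCGCC, which have been described as a mild cold response element bound by Sp1. Capitals mark every complete match to the motifs searched.
Cirbp promoter, chr10:80167589-80167777, plus strand: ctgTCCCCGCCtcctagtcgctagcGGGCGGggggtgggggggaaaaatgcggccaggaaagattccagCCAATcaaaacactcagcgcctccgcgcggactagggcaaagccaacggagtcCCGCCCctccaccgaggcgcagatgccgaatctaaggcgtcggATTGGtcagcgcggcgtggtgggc
Letters were matched on both strands. TCCCCGCC occurs at bases 4 to 11, and 5.38% of the 32851 promoters of 300 bases hold it. The GC box GGGCGG occurs at bases 26 to 31 and, on the other strand, 123 to 128 (35.7% of promoters). Another GC box, at bases 186 to 191, runs past the end of the shown stretch. CCAAT occurs at bases 70 to 74 and, on the other strand, 166 to 170 (37.4%). The window of the other start site, not shown, holds 4 GC boxes and neither TCCCCGCC nor CCAAT. The heat shock element letters GAANNTTC and TTCNNGAA (7.86% and 8.52% of promoters), the E-box CACGTG (7.15%), the cAMP response element TGACGTCA (1.79%), the D-box TTATGTAA (0.938%) and the ROR element AGGTCA (16.3%) are not in either Cirbp window. A match is a description of letters and not of binding, and these windows are rich in G and C (65.7% and 70.0%, against a median of 52.7% over all promoters).

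Values are the deposited normalised expression values. They sum to between 962649 and 1033550 per library, read depth is unknown, and each library had 15351 to 15802 genes at 1 or above. Lung genes were abundant in every library: the surfactant gene Sftpc lay between 13781 and 19990, and the airway gene Scgb1a1 between 21013 and 39576. Mature neutrophil markers differed in level: Ly6g reached at most 6.04, S100a9 279 and Hdc 135 (medians 0.256, 8.13 and 67.2 over all libraries). Between anti-Ly6G and control mice 0 of 20 markers passed the test at either time, where 0% of all genes passed. The list median of that difference was -0.70 at ZT4 and -0.27 at ZT16 (log2). The neutrophil sum over 22 markers was 303 to 1291 in ZT4 control mice (median 344) and 276 to 383 in ZT4 anti-Ly6G mice (median 322). Because the values are not known to be per length, the level of Cirbp is not compared with that of Rbm3. In whole lung, fewer cells with a transcript and less of it per cell cannot be told apart.

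Cirbp was highest in ZT16 DT lungs (95.8 ± 27.4, mean ± SD, n = 3) and in ZT4 anti-Ly6G lungs (95.3 ± 19.4, n = 7). ZT4 control lungs followed with 72.7 ± 12.0 (n = 7) and ZT4 DT lungs with 67.3 ± 5.12 (n = 4). The lowest means were those of ZT16 anti-Ly6G (62.5 ± 10.3, n = 7) and ZT16 control lungs (59.2 ± 12.5, n = 7). Rbm3 put the 6 groups in the same order. Its means were 210 ± 47.0 in ZT16 DT, 209 ± 15.9 in ZT4 anti-Ly6G and 182 ± 29.4 in ZT4 control lungs. They were 161 ± 23.0 in ZT4 DT, 152 ± 19.7 in ZT16 anti-Ly6G and 151 ± 24.5 in ZT16 control lungs. For both genes the ranges of every pair of neighbours in this order overlapped.

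**Figure D1:**
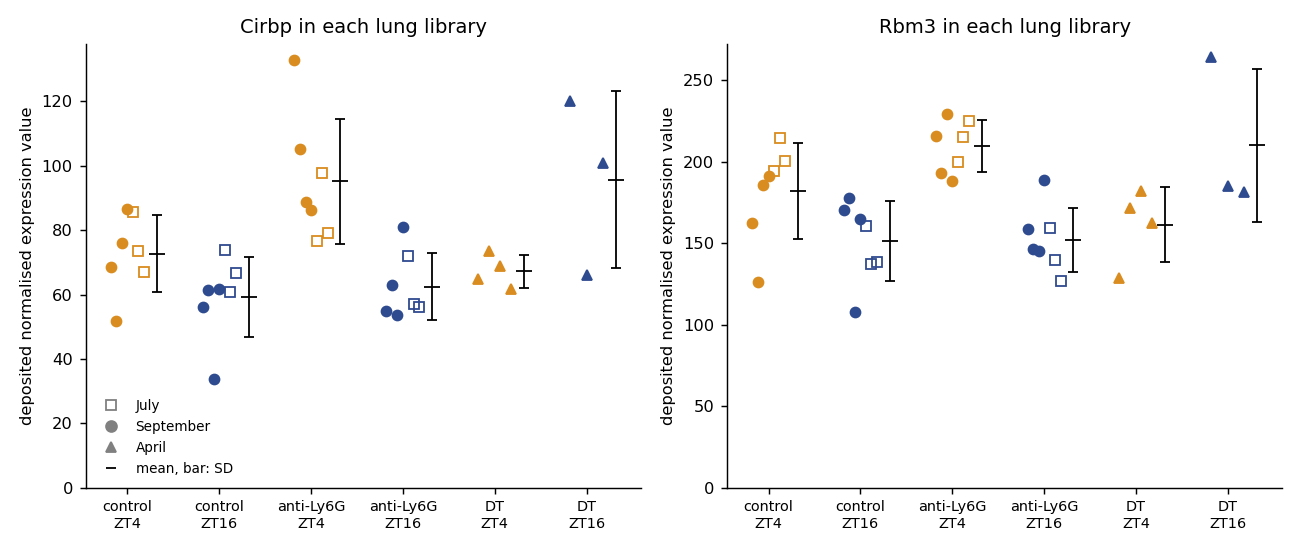
Deposited normalised expression value of Cirbp (left) and Rbm3 (right) in each of the 35 lung libraries, by group on the x axis; symbols give the collection batch, colours the time of day, and black bars the mean with its SD. In anti-Ly6G mice the ZT16 libraries lie mostly below the ZT4 libraries, whereas 2 of 3 ZT16 DT libraries lie above all ZT4 DT libraries.

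In control mice Cirbp ranged from 51.8 to 86.5 at ZT4 (median 73.5) and from 33.9 to 73.8 at ZT16 (median 61.3). Rbm3 ranged from 126 to 215 at ZT4 (median 191) and from 108 to 178 at ZT16 (median 161). The ranges overlapped for both genes, with 1 of 7 ZT16 libraries below all ZT4 libraries in each. limma (log2 of value + 0.5, Benjamini-Hochberg adjusted over all genes kept) gave a ZT16 minus ZT4 difference of -0.31 ± 0.14 (log2 ± SE) for Cirbp with adjusted p = 0.171. For Rbm3 it gave -0.27 ± 0.11 with adjusted p = 0.121. Neither passed the threshold of 0.05, which 9.04% of all genes passed in this comparison. The 95% intervals were -0.60 to -0.02 for Cirbp and -0.49 to -0.05 for Rbm3.

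2 September control libraries stood at the low end. ZT4 control library 2 (libraries are numbered by table order within their group) had the lowest ZT4 values of both genes (51.8 and 126). ZT16 control library 3 had the lowest values of the whole series (33.9 and 108). Without ZT4 control library 2 the Rbm3 difference became -0.35 and passed (adjusted p = 0.0246), and that of Cirbp became -0.39 (adjusted p = 0.0797). Without ZT16 control library 3 the differences shrank to -0.18 for Cirbp and -0.19 for Rbm3 (adjusted p = 0.438 and 0.304). ZT4 control library 2 also had the highest neutrophil sum of the series (1291), whereas that of ZT16 control library 3 was 256. Its red blood cell sum was the highest of the series as well (856, against 164 in ZT16 control library 3). The B cell sums of these libraries were the lowest of their groups (53.8 and 35.5). The part of these cell markers in the values of Cirbp and Rbm3 was not tested.

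In anti-Ly6G mice both genes were lower at ZT16. Cirbp ranged from 76.6 to 133 at ZT4 (median 88.8) and from 53.7 to 80.9 at ZT16 (median 57.0), and 6 of 7 ZT16 libraries lay below every ZT4 library. Rbm3 ranged from 188 to 229 at ZT4 (median 215) and from 127 to 189 at ZT16 (median 146), again with 6 of 7 ZT16 libraries below every ZT4 library. Cirbp fell by 0.60 ± 0.14 on the log2 scale (1.51-fold, 95% interval -0.88 to -0.31, limma adjusted p = 0.00244). Rbm3 fell by 0.47 ± 0.11 (1.38-fold, -0.69 to -0.24, adjusted p = 0.00221). In this comparison 20.9% of all genes passed, the downward calls being 10.4% of all genes, and the median absolute difference over all genes was 0.13. The direction of calls over all genes depended on scaling: 1775 rose and 1739 fell as deposited, and 1336 rose and 2349 fell with libraries scaled to one sum. In control mice the same scaling turned 781 and 736 into 586 and 1081. Both genes kept their direction and call in these comparisons under the 3 scalings tried. The 2 genes ranked 1116 and 1088 of 16786 by p.

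The time difference of the 2 genes split differently between the batches. In July, Cirbp changed by -0.16 in control and -0.45 in anti-Ly6G mice, and in September by -0.42 and -0.70. Rbm3 went the other way, with -0.48 and -0.59 in July and -0.11 and -0.37 in September. In July the ZT16 values of Rbm3 all lay below the ZT4 values, in control (137 to 161 against 195 to 215) and in anti-Ly6G mice (127 to 159 against 200 to 225). Such a separation held for 9.16% and 12.4% of all genes. Those of Cirbp separated in anti-Ly6G mice, in July (56.2 to 72.1 against 76.6 to 97.9) and in September (53.7 to 80.9 against 86.2 to 133, as for 6.9% of all genes). Both genes were thus lower at ZT16 in all 4 combinations of antibody and batch, by unequal amounts. The September minus July difference of the time change was -0.25 ± 0.19 for Cirbp and 0.30 ± 0.15 for Rbm3 (limma adjusted p = 0.604 and 0.416), and 0.0715% of all genes passed that test. Fitted on July libraries alone, Rbm3 passed in control mice (-0.48, adjusted p = 0.0114), and on September libraries alone it did not pass in anti-Ly6G mice (-0.37, adjusted p = 0.108).

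Averaged over control and anti-Ly6G mice, a comparison added after the DT values were seen, Cirbp fell by 0.45 ± 0.10 (adjusted p = 0.00071) and Rbm3 by 0.37 ± 0.08 (adjusted p = 0.000434). Of all genes 29.3% passed, 15.2% downward (2370 rose and 2544 fell, or 1725 and 3398 with libraries scaled to one sum). Averaged over all 3 treatments, neither gene passed (-0.15 and -0.12, limma adjusted p = 0.294 and 0.259, against 20.8% of all genes).

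In DT mice the difference had the opposite sign. Cirbp was 64.9, 73.6, 68.8 and 61.7 in the 4 ZT4 libraries and 120, 66.1 and 101 in the 3 ZT16 libraries. Rbm3 was 129, 172, 182 and 163 at ZT4 and 264, 185 and 181 at ZT16. For each gene 2 of 3 ZT16 libraries lay above all ZT4 libraries and the other lay within their range: library 2 for Cirbp and library 3 for Rbm3. The differences were 0.47 ± 0.20 for Cirbp and 0.37 ± 0.16 for Rbm3 (limma adjusted p = 0.112 and 0.102), and 15.3% of all genes passed. Over all genes 889 rose and 1676 fell, against 1098 and 1351 with libraries scaled to one sum and 1264 and 1178 with quantile normalisation, under which Rbm3 passed (0.47, adjusted p = 0.0435). ZT16 DT library 1, the highest of the series for Rbm3, carried much of them: without it the differences were 0.28 and 0.19 (adjusted p = 0.452 and 0.501). Without ZT16 DT library 2, Cirbp passed (0.71, adjusted p = 0.0323).

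The time difference itself differed between DT mice and the antibody-treated mice. Against anti-Ly6G mice it was higher by 1.06 ± 0.25 for Cirbp (95% interval 0.56 to 1.56, limma adjusted p = 0.00299) and by 0.84 ± 0.19 for Rbm3 (0.45 to 1.22, adjusted p = 0.00262). Here 19.1% of all genes passed, and 7.44% of all genes did so upward. Both genes kept this call without any 1 of the 35 libraries, with adjusted p of at most 0.0229 and 0.0234. Against control mice it was higher by 0.78 ± 0.25 for Cirbp and 0.64 ± 0.19 for Rbm3 (adjusted p = 0.032 and 0.0232, where 13.8% of all genes passed and 4.93% of all genes did so upward). Those calls were lost for both genes without ZT4 DT library 1 (0.76 and 0.54) or ZT16 DT library 1 (0.59 and 0.46). For Cirbp they were also lost without ZT4 DT library 4 (0.74) or ZT16 DT library 3 (0.72). The direction of the calls over all genes turned with scaling. Against anti-Ly6G mice 1249 were higher and 1953 lower as deposited, 1790 and 1407 with libraries scaled to one sum, and 1464 and 1426 with quantile normalisation. Against control mice they were 827 and 1487, 1226 and 976, and 1088 and 981. Cirbp and Rbm3 remained higher in DT mice and passed in both comparisons under these scalings. The 2 comparisons share the DT libraries and are not independent of each other. The DT mice differ from the others in toxin, genotype and batch at once.

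Between anti-Ly6G and control mice neither gene passed. At ZT4, Cirbp was higher by 0.38 ± 0.14 (95% interval 0.10 to 0.67, unadjusted p = 0.0103, limma adjusted p = 0.657) and Rbm3 by 0.22 ± 0.11 (-0.01 to 0.44, adjusted p = 0.706). At ZT16 the differences were 0.10 ± 0.14 and 0.02 ± 0.11 (adjusted p = 0.976 and 0.996). limma called 0 genes at an adjusted p below 0.05 in both comparisons, against 1185 (7.06%) and 701 (4.18%) at an unadjusted p below 0.05. In July the ZT4 difference was 0.16 for Cirbp and 0.07 for Rbm3, and in September 0.55 and 0.32. The time difference in anti-Ly6G mice exceeded that in control mice by -0.29 ± 0.20 for Cirbp and -0.20 ± 0.15 for Rbm3 (adjusted p = 0.871 and 0.874). There too limma called 0 genes, against 1007 (6.00%) at an unadjusted p below 0.05. The larger fall in anti-Ly6G mice was therefore not shown to differ from that in control mice.

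**Figure D2:**
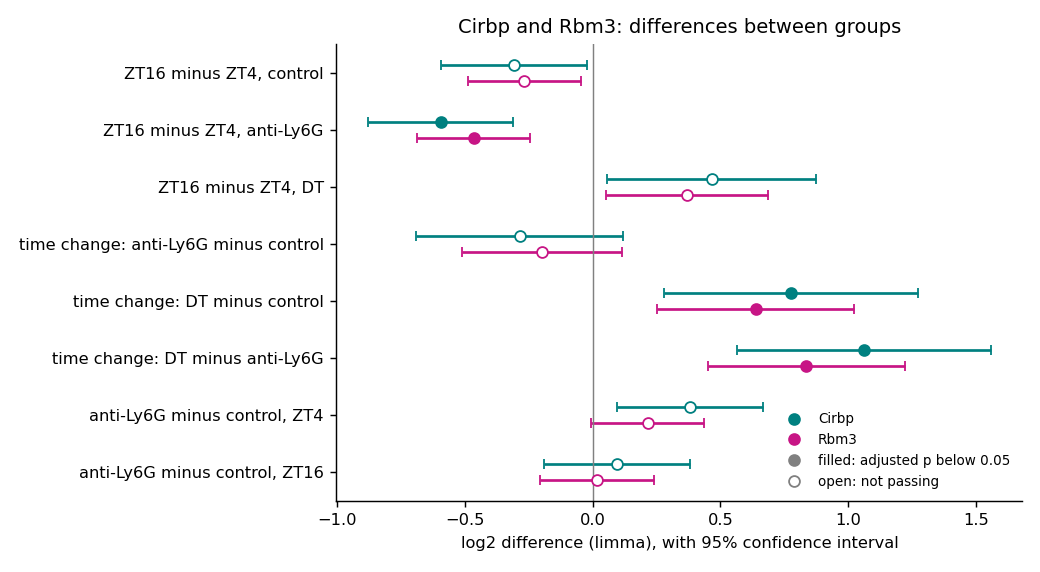
Log2 differences of Cirbp and Rbm3 from limma on the x axis for 8 comparisons, with 95% confidence intervals; filled points have an adjusted p below 0.05. The anti-Ly6G time difference is negative for both genes, and the DT time difference exceeds those of control and anti-Ly6G mice.

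Within a library the 2 genes moved together. Over the 18 ZT4 libraries the log2 values correlated with Pearson r = 0.68 and Spearman rho = 0.68 (permutation adjusted p = 0.00261 and 0.00421, adjusted over 9 relations). Over the 17 ZT16 libraries r was 0.83 and rho 0.65 (permutation adjusted p = 0.000405 and 0.00764). After subtraction of the mean of each group and batch, r was 0.74 and rho 0.68 over 35 libraries (permutation adjusted p = 0.000522 and 0.00126). Without the 2 libraries farthest from the median of Cirbp, r was 0.57 at ZT4, 0.53 at ZT16 and 0.66 for the deviations (permutation adjusted p = 0.0348, 0.053 and 0.00483), so that the relation at ZT16 no longer passed. Within batches the deviations gave r = 0.84 in September (n = 16), 0.54 in July (n = 12) and 0.59 in April (n = 7), with permutation adjusted p = 0.0131, 0.207 and 0.438, so that it passed in September alone.

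The log2 ratio of Cirbp to Rbm3 tests whether one gene changed more than the other. It was -1.32 ± 0.17 in ZT4 control and -1.36 ± 0.25 in ZT16 control lungs (SD, n = 7 each), where the 0 point of the scale has no meaning of its own. In anti-Ly6G mice the means were -1.15 ± 0.29 and -1.28 ± 0.14, and in DT mice -1.25 ± 0.19 and -1.15 ± 0.32. None of 5 comparisons passed an exact two-sided permutation test within batch (exact p = 0.71, 0.32 and 0.6 for time in control, anti-Ly6G and DT mice). The control value averaged opposite differences of the 2 batches. In July the ratio was higher at ZT16 (-1.17 to -1.05) than at ZT4 (-1.57 to -1.18), by 0.32. In September it was lower at ZT16 (-1.65 to -1.41) than at ZT4 (-1.28 to -1.14), with a difference of -0.31. The ranges did not overlap in either batch, with exact p = 0.1 and 0.0286, the smallest that 3 against 3 and 4 against 4 allow, and adjusted p = 0.4 and 0.114 over the 4 comparisons of each batch. In anti-Ly6G mice the differences were 0.14 in July and -0.33 in September (exact p = 0.4 and 0.114). Between anti-Ly6G and control mice the ratio differed by 0.17 at ZT4 and 0.08 at ZT16 (exact p = 0.151 and 0.29). The smallest p possible was 0.00143 for the antibody groups and 0.0286 for the DT groups. A p that misses the threshold does not show that both genes changed equally.

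**Figure D3:**
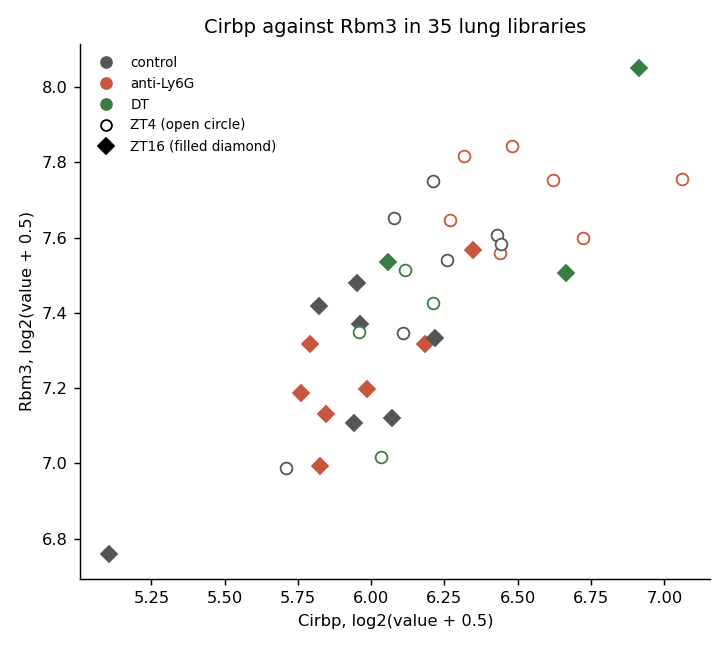
Cirbp on the x axis against Rbm3 on the y axis, both as log2(value + 0.5), in 35 lung libraries; colours give the treatment, open circles ZT4 and filled diamonds ZT16. ZT16 control library 3 lies at the low end and ZT16 DT library 1 at the high end for both genes.

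Heat shock genes were higher at ZT16 in anti-Ly6G mice, where Cirbp and Rbm3 were lower. The 27 heat shock and chaperone genes of the list were all tested. In anti-Ly6G mice 11 rose and 0 fell at ZT16 (median 0.35, against -0.02 over all genes, of which 10.6% rose). Hspa8, the constitutive HSP70 chaperone, rose by 1.10 ± 0.19, Fkbp4, a cochaperone of steroid receptors, by 0.67 ± 0.13 and Hspa4l, an HSP110-type chaperone, by 0.49 ± 0.14 (limma adjusted p = 8.62e-05, 0.000413 and 0.0093). In control mice these 3 were the ones that rose, by 0.66, 0.43 and 0.52 (adjusted p = 0.0245, 0.0356 and 0.0116), and 0 fell (median 0.25, where 4.65% of all genes rose and 4.38% fell). In DT mice 0 rose and 0 fell (median 0.05), where 5.3% of all genes rose and 9.98% fell. Against anti-Ly6G mice the DT time difference was lower in 3 of the 27 and higher in 1, near the 11.6% and 7.44% of all genes. The lower ones were the inducible HSP70 genes Hspa1a (-2.73) and Hspa1b (-2.96) and their cochaperone Dnajb1 (-1.10), and the higher one was Hsf2, a heat shock factor (0.42).

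Hsph1, a chaperone gene known to follow body temperature, was 119 ± 65.3 at ZT4 and 233 ± 225 at ZT16 in control lungs. In anti-Ly6G lungs it was 73.7 ± 10.4 and 187 ± 62.1, and in DT lungs 116 ± 42.0 and 137 ± 96.9. It rose in anti-Ly6G mice (1.28 ± 0.31, limma adjusted p = 0.00356), and did not pass in control (0.77, adjusted p = 0.125) or DT mice (0.08, adjusted p = 0.93). Per2, a clock gene that responds to temperature, rose in all 3 treatments, by 1.29, 1.77 and 1.04 (adjusted p = 0.000269, 8.31e-07 and 0.0295). In DT mice Per2 therefore kept the sign it had in the other mice, whereas Cirbp and Rbm3 did not.

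The mean log2 value of the 27 heat shock genes was compared with both transcripts library by library. Cirbp correlated with it at r = -0.79 over the ZT4 libraries and -0.88 over the ZT16 libraries (rho = -0.74 and -0.77, permutation adjusted p of r = 0.000405 and 9e-05). For deviations from the means of group and batch, r was -0.86 and rho -0.81 (permutation adjusted p = 9e-05). The raw p of that r was 1e-05, the smallest that 100000 resamples can give. Without the 2 libraries farthest from the Cirbp median these r were -0.73, -0.70 and -0.80. Within batches the deviations gave -0.89 in September, -0.76 in July and -0.85 in April (permutation adjusted p = 0.00189, 0.0534 and 0.087), so that the relation passed in September alone.

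For Rbm3 the Pearson correlation with the heat shock mean passed, but not without the 2 farthest libraries. Its r was -0.50 at ZT4, -0.77 at ZT16 and -0.67 for the deviations (rho = -0.32, -0.69 and -0.53, permutation adjusted p of r = 0.0331, 0.00184 and 0.00973). Without the 2 libraries farthest from the Rbm3 median, r was -0.47, -0.47 and -0.45 (permutation adjusted p = 0.0812, 0.0871 and 0.13). It thus stayed negative but no longer passed, and a narrower range of values weakens r by itself. Leaving out 1 library lost the call in 3 of 18 cases at ZT4, 0 of 17 at ZT16 and 1 of 35 for the deviations. Within batches the deviations gave -0.89 in September, -0.47 in July and -0.18 in April (permutation adjusted p = 0.0131, 0.38 and 0.778). The difference between the Cirbp and the Rbm3 correlations was not tested. Both low control libraries lay at the other end for heat shock: their list means were 7.69 in ZT4 control library 2 and 8.43 in ZT16 control library 3, against 6.76 to 7.18 and 7.04 to 7.29 in the rest of their groups. ZT16 DT library 1, high for Cirbp and Rbm3, had the lowest list mean of any library (6.69). All these values come from the same libraries and share their normalisation.

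**Figure D4:**
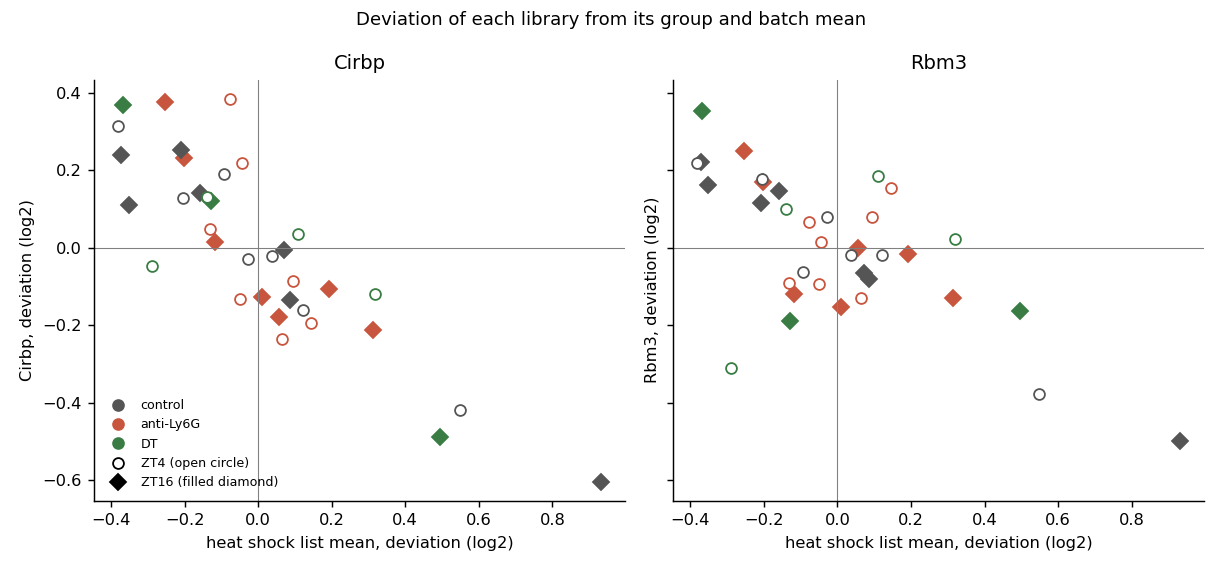
Deviation of each of 35 libraries from its group and batch mean (log2), with the mean of 27 heat shock genes on the x axis and Cirbp (left) or Rbm3 (right) on the y axis; colours give the treatment and symbols the time. Libraries with more heat shock transcript had less Cirbp (r = -0.86) and, with wider scatter, less Rbm3 (r = -0.67).

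Other RNA-binding genes were counted to see whether Cirbp and Rbm3 stood with their relatives. Of 40 other genes with an Rbm symbol 38 were tested. In anti-Ly6G mice 4 rose and 6 fell at ZT16 (median -0.05), where 10.6% of all genes rose and 10.4% fell. In control mice 0 rose and 1 fell (4.65% and 4.38% of all genes), and in DT mice 2 rose and 4 fell (5.3% and 9.98%). The shares of the list in anti-Ly6G and DT mice were thus near those of all genes. The fall of Rbms1, a single-strand nucleic acid binding protein, was 0.27 ± 0.06 in anti-Ly6G mice (limma adjusted p = 0.000917), and the splicing factor gene Rbm10 rose by 0.24 ± 0.05 (adjusted p = 0.000939). In anti-Ly6G mice every one of the 38 had a smaller absolute difference than Rbm3 (-0.47).

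Of 20 temperature-sensitive splicing regulators, 7 fell and 0 rose in anti-Ly6G mice (median -0.09), where 10.4% of all genes fell and 10.6% rose. In control mice 3 fell and 0 rose (4.38% and 4.65% of all genes), and in DT mice 0 fell and 1 rose (9.98% and 5.3%). Hnrnpdl and Hnrnpd, related regulators of splicing and message stability, fell in control (-0.18 and -0.23, limma adjusted p = 0.0345 and 0.011) and anti-Ly6G mice (-0.38 and -0.34, adjusted p = 9.87e-06 and 0.000104). In DT mice they differed by 0.08 and 0.02 (adjusted p = 0.515 and 0.898). Against anti-Ly6G mice the DT time difference was higher in 7 of the 20 and lower in 0 (7.44% and 11.6% of all genes), among them Hnrnpdl (0.46) and Hnrnpd (0.36).

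**Figure D5:**
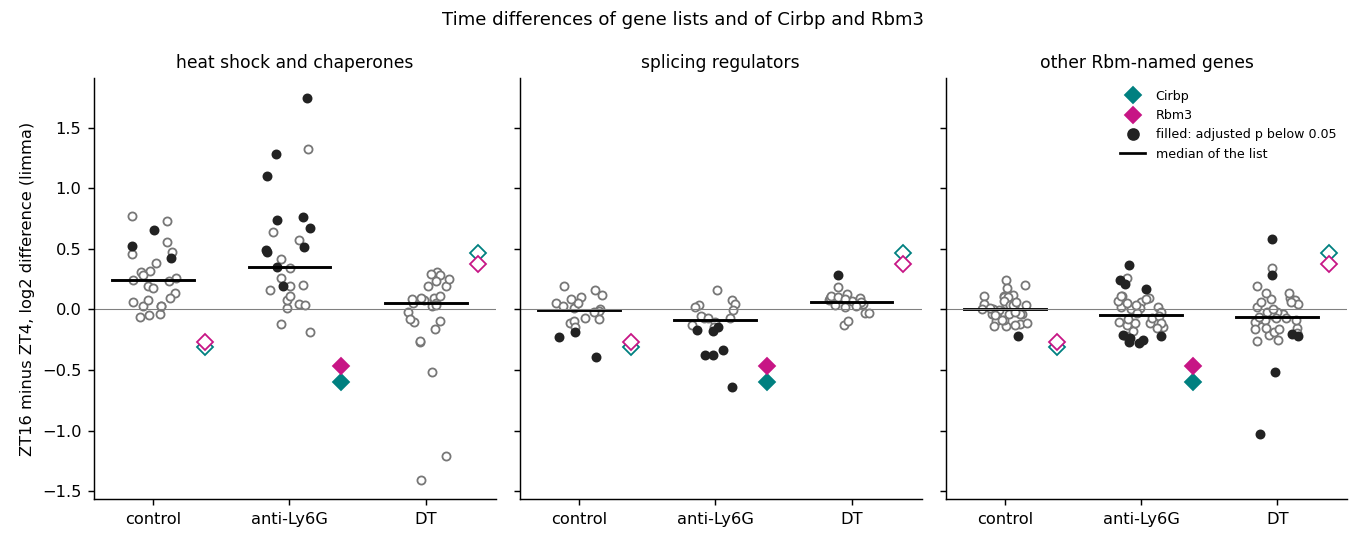
ZT16 minus ZT4 log2 difference (y axis) of each gene of 3 lists in control, anti-Ly6G and DT mice; lines are list medians, filled points have an adjusted p below 0.05, and diamonds are Cirbp and Rbm3. In anti-Ly6G mice heat shock genes lie mostly above 0, splicing regulators mostly below, and Cirbp and Rbm3 below all 38 other Rbm-named genes.

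Of 18 polyadenylation and cleavage factors, genes of the step that CIRBP influences, 2 rose and 0 fell in anti-Ly6G mice (10.6% and 10.4% of all genes), and 0 rose and 2 fell in DT mice (5.3% and 9.98%). In control mice 0 rose and 0 fell (4.65% and 4.38%). Of 13 genes of thermogenesis 11 were tested. The thyroid hormone receptor gene Thra fell in control (-0.54 ± 0.06), anti-Ly6G (-0.57 ± 0.06) and DT mice (-0.56 ± 0.09). Of 19 core clock genes, 6 rose and 3 fell in control mice (4.65% and 4.38% of all genes), 9 and 2 in anti-Ly6G mice (10.6% and 10.4%) and 3 and 0 in DT mice (5.3% and 9.98%). The 2 that fell in anti-Ly6G mice were near the share of all genes. The repressor gene Cry1 rose in control (1.51), anti-Ly6G (1.83) and DT mice (adjusted p = 3.21e-08), so that it kept its direction. Nr1d1, a clock repressor, fell in control (-3.40) and anti-Ly6G mice (-3.10) and differed by -0.51 in DT mice (adjusted p = 0.473).

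Among 16785 other genes, the closest to Cirbp over the 35 libraries was Gm42418 (r = 0.88), an annotated transcript that overlaps a ribosomal RNA repeat. It was followed by the histone gene H3f3b (0.84), Snapin (0.83), Tk2 (0.82) and Sept10, listed under ENSMUSG00000019917 (0.82), and Rbm3 ranked 8 (0.80). For Rbm3 the closest were H3f3b (0.84), Serpinb10 (0.83), the RNA-binding gene Hnrnpa0 (0.81), 2010111I01Rik (0.81) and Cirbp (rank 5, 0.80). After subtraction of group and batch means, the closest to Rbm3 were Slc35b2 (0.79), Cirbp (rank 2, 0.74) and Hnrnpa0 (0.73). For Cirbp they were E130307A14Rik (0.82), Zfp512b (0.82) and Gm42418 (0.78), with Rbm3 at rank 8 (0.74). These are descriptions of likeness over libraries that share group, batch and normalisation.

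Since Gm42418 was picked for its likeness to Cirbp, its levels are given as a description. It was 73.6 ± 13.6 and 53.9 ± 16.0 in ZT4 and ZT16 control lungs, 107 ± 23.0 and 57.7 ± 14.6 in anti-Ly6G lungs and 72.8 ± 8.12 and 100 ± 22.4 in DT lungs. Its 2 highest means were those of ZT4 anti-Ly6G and ZT16 DT lungs, the same 2 groups as for Cirbp (95.3 and 95.8). The part of this transcript in the values of Cirbp and Rbm3 was not tested.

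Markers of several cell types moved in the same comparisons. Every list with 3 or more markers called in 1 direction is given for time within each treatment and for DT mice against the other mice. In anti-Ly6G mice 10.4% of all genes fell at ZT16 and 10.6% rose. There 9 of 10 mesothelial, 7 of 10 B cell, 5 of 10 natural killer and 4 of 10 T cell markers fell. Of 10 fibroblast markers 4 fell and 1 rose (list median -0.19). Of 10 alveolar type 2 markers 3 fell and 2 rose (list median 0.08). The mesothelial sum was 534 to 735 at ZT4 and 433 to 547 at ZT16, and the B cell sum 82.2 to 186 and 47.0 to 108. In control mice, where 4.38% of all genes fell, 5 of 10 natural killer, 4 of 20 mature neutrophil and 3 of 10 fibroblast markers fell (list medians -0.48, -0.83 and -0.13), as did 1 of 10 mesothelial and 2 of 10 B cell markers. The neutrophil sum of ZT16 control lungs was 241 to 313, and the natural killer sum was 34.8 to 47.5 at ZT4 and 21.0 to 32.5 at ZT16. In DT mice, where 9.98% of all genes fell and 5.3% rose, 8 of 10 endothelial, 5 of 10 alveolar type 2 and 3 of 10 fibroblast markers fell and 6 of 10 airway markers rose. Endothelial sums were 4283 to 5539 at ZT4 and 3125 to 3395 at ZT16, and airway sums 25731 to 33712 and 38945 to 47470. The DT time difference was higher than in anti-Ly6G mice in 6 of 10 mesothelial and 5 of 10 airway markers. It was lower in 8 of 10 endothelial markers (7.44% of all genes were higher and 11.6% lower). Compared with control mice it was higher in 5 of 10 airway and 3 of 10 smooth muscle markers. There it was lower in 6 of 10 endothelial markers (4.93% and 8.86% of all genes). No marker was at 0, since the table holds 0 zeros. The part of these cell types in the differences of Cirbp and Rbm3 was not tested.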

How the data were processed

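Amplified messenger RNA of 35 left lung lobes was sequenced, per the labels' protocols. The submitters' processing notes name GRCm38, kallisto 0.43.1, RSEM 1.2.20, CASAVA 1.8.2 and cutadapt, without role or order. The authors deposited 1 table of normalised expression values, taken as signal (lowest 0.0064). The sources used here do not state the normalisation or any batch adjustment. Adjusted values could make standard errors too small.

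Table columns named group and batch but no single sample, so libraries were numbered by table order (1 to 4 September, 5 to 7 July; DT in April). Genes at 1 or more in at least 3 libraries were kept (5425 removed). limma 3.58.1 in R 4.3.3 (trend option) was fitted to log2(value + 0.5) with 6 group means and a batch term (September versus July). The September minus July contrast used a mean per group and batch. p-values were two-sided and adjusted by Benjamini-Hochberg over all genes kept (threshold 0.05). Fold changes on this scale understate changes of low genes. The script was tested on simulated data. Ratios were tested by exact permutation within batch and correlations by 100000 permutations among libraries of one time, or of one group and batch for deviations.

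The members and lists were chosen with earlier results of these data known. By rule the text names Cirbp, Rbm3, Per2, Hsph1, the 5 genes most like each member, and up to 3 genes per list of smallest p in the time difference averaged over 3 treatments. Some genes that meet this rule are left out here. Hspa1a, Hspa1b, Dnajb1, Hsf2, Sftpc, Scgb1a1, Ly6g, S100a9, Hdc, G0s2 and Mxd1 were named after their values were seen. Sequences came from RefSeq promoters and GENCODE transcripts. Alternatives covered pseudocount, filter, scaling, limma settings, batch term, groups, single batches and left-out libraries.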

Additional observations from a re-analysis of the deposited data

Results flagged for a closer look

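4 results stand out because the effect of time differed between treatments by a test of the difference itself. The ZT16 minus ZT4 difference was higher in DT than in anti-Ly6G mice by 1.06 for Cirbp and 0.84 for Rbm3 (log2, limma). It was higher in DT than in control mice by 0.78 for Cirbp and 0.64 for Rbm3. Of all genes 19.1% passed against anti-Ly6G mice and 13.8% against control mice (7.44% and 4.93% upward). Both comparisons share the DT libraries. The calls against control mice were lost for both genes without ZT4 DT library 1 or ZT16 DT library 1. The DT mice came from 1 batch without controls, so toxin, genotype and batch cannot be told apart. In the groups of 4 or 7 libraries, no library of Cirbp, Rbm3 or their ratio passed Dixon's criterion for lying far from the others. Such a library was found in 0 of 15 groups tested, where chance gives about 1 in 20. The lowest Cirbp library of ZT16 control mice was near the cut-off (0.554 against 0.568). The ZT16 DT group of 3 libraries was too small for this criterion and was not tested. Its Rbm3 values were 264, 185 and 181.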

How the results depend on the processing

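No paired analysis was possible because the table columns carry no number that pairs libraries across groups.

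Of 325 recomputed values under settings other than leaving out 1 library, 304 kept their direction and their side of the threshold; scaling, pseudocount, filter and limma settings changed the call of Rbm3 over time in DT mice, which passed with quantile normalisation (0.47), and the sign of Rbm3 in anti-Ly6G minus control mice at ZT16 with library weights (-0.0083). July libraries alone gave Rbm3 in control mice -0.48, which passed, and turned anti-Ly6G minus control at ZT16 to -0.125 for Cirbp and -0.041 for Rbm3, and the Cirbp to Rbm3 log2 ratio to 0.32 (time, control), 0.14 (time, anti-Ly6G) and -0.084 (anti-Ly6G minus control at ZT16). September libraries alone lost Rbm3 over time in anti-Ly6G mice (-0.37) and over both antibodies (-0.24). For deviations, calls were lost in July (Cirbp with Rbm3 0.54, Cirbp with heat shock -0.76, Rbm3 with heat shock -0.47) and April (0.59, -0.85 and -0.18), where 12 and 7 libraries remain. Without the 2 farthest libraries, Cirbp with Rbm3 at ZT16 was 0.53 (adjusted p = 0.053), and Rbm3 with heat shock was -0.47 at ZT4, -0.47 at ZT16 and -0.45 for deviations; its Spearman rho at ZT4 was -0.32. Other causes were not tested.

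Leaving out each library in turn gave ranges of -0.35 to -0.19 for Rbm3 over time in control mice and 0.28 to 0.71 for Cirbp in DT mice. For anti-Ly6G minus control at ZT16 they were -0.032 to 0.15 (Cirbp) and -0.062 to 0.064 (Rbm3), and for DT minus control 0.59 to 1.02 and 0.46 to 0.73. The ratio ranged from -0.10 to 0.0011 (time, control) and -0.059 to 0.26 (time, DT), and Rbm3 with heat shock from -0.72 to -0.20 at ZT4 (weakest without ZT4 control library 2) and -0.80 to -0.50 for deviations (weakest without ZT16 control library 3).

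Counts of genes called moved more than those of the 2 genes. Over time, July and September alone called 309 and 482 in control mice (1517 together), 798 and 1467 in anti-Ly6G mice (3514), and 1809 and 3135 over both (4914), with fewer libraries in each. Leaving out 1 library moved the DT count (2565) to 1190 without ZT4 DT library 1, DT minus control (2314) to 1161 and DT minus anti-Ly6G (3202) to 2121. September minus July (12 genes) ranged from 4 to 209 (the latter without ZT16 anti-Ly6G library 7), and was 3 with limma without trend and 22 with library weights. Unknown read depth leaves the counting error of both genes unmeasured.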
